A study of Mus musculus with 8 samples.

Results

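The endoplasmic reticulum (ER) folding and stress genes are 34 genes taken by name: 16 chaperones and disulfide isomerases, 5 genes of ER-associated degradation, 5 stress sensors and transcription factors, and 8 targets of the transcription factor ATF4. Every probe whose gene symbol in the platform annotation was on that list was taken, which gave 42 of the 25697 probes on the array. These probes stood for 30 of the 34 genes. Dnajb11, Sdf2l1, Ero1l and Atf6 had no probe under their names and are not analysed here. The expression of these genes was set between hepatic stellate cells of IL15Ra-knockout mice and of control mice. No member passed the test in either direction, and 1 of the 19 genes measured well enough to test, the disulfide isomerase Pdia6, had knockout values that lay wholly above the control values. Groups that did not overlap were also found for 5.02% of all tested probes.

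The cells were primary hepatic stellate cells at passage 0, liver pericytes that store retinoid and become collagen-secreting myofibroblasts in injury and on plastic. They came from IL15Ra-knockout mice, which lack IL-15R-alpha, the chain of the receptor that binds interleukin-15 (4 samples), and from wild-type control mice (4 samples), all of strain B6/129, labelled female and 6 weeks old. Both groups were kept in medium with 20% fetal bovine serum, and no agent was given to either. The labels name no cell type to which the deletion is limited. Whether each sample is its own animal or culture is not stated, so a p-value here covers the variation among these 4 and 4 samples, part of which may be technical. RNA of each sample was hybridised to 1 Illumina MouseRef-8 v2.0 array. The series title names the control of fibrogenic potential by the receptor as the question.

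The ER folds secreted and membrane proteins with the help of chaperones, which hold unfolded chains, and of disulfide isomerases, which form and exchange cysteine bonds. When unfolded protein builds up, 3 sensors in the ER membrane respond. IRE1 (gene Ern1) splices the messenger RNA of Xbp1, ATF6 is cut to release a transcription factor, and PERK (gene Eif2ak3) phosphorylates the translation factor eIF2 alpha. XBP1 and ATF6 drive chaperone and degradation genes, while phosphorylated eIF2 alpha lowers general translation and favours translation of ATF4, whose targets serve amino acid supply, redox balance and cell death. Other kinases of eIF2 alpha raise ATF4 without ER stress, so chaperones and ATF4 targets can move apart. Cells that secrete much collagen, as activated stellate cells do, depend on this machinery.

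A probe counted as above background on an array when its detection p, deposited with the signal, was under 0.05. Between 7765 and 10516 probes were above background on the knockout arrays and between 6760 and 9961 on the control arrays. Knockout 1, knockout 4 and control 3 had the fewest (6760 to 7830, against 9135 to 10516 on the other 5). The 4 probes of Il15ra were above background on no array, so the targeted gene does not check the labels. Probes of the Y-linked genes Uty, Kdm5d and Eif2s3y were above background on all 8 arrays, which goes against the label female. Of 12 stellate cell markers, 11 had a probe and 7 were above background on all arrays, while Lrat, the enzyme that esterifies retinol for storage, was above background on none. The summed level of the stellate markers was 46894 to 50467 in knockout and 40001 to 44414 in control, with 1 of the 9 tested called higher in knockout (Col1a2) and 1 lower (Reln). Their median log2 difference, knockout minus control, was -0.13, with 3 above 0 and 6 below. The sum adds linear levels, so bright genes such as Col1a2 (mean log2 level 13.74 in knockout and 11.90 in control) weigh heavily in it. For cholangiocyte and mesothelial markers the summed level was 3613 to 4931 in knockout and 2546 to 3108 in control. All 5 tested had a log2 difference above 0, but 0 were called and the groups lay apart for 1 (Krt7). Wt1, which weighs heavily in this sum (mean log2 level 11.61 in knockout and 11.12 in control), overlapped between the groups. Krt19 and Sox9 were above background on no array. Macrophage markers were present too, 7 of 10 on all arrays, with a summed level of 34479 to 39708 in knockout and 34769 to 42867 in control. Sinusoidal endothelial markers summed to 1307 to 3850 in knockout and 1553 to 3708 in control. All 5 tested had a log2 difference below 0, the groups lay apart for 1 (Stab2), and 0 were called. Lyve1 (-1.54) was called when each array's number of detected probes was a covariate. The summed level of dendritic cell and MHC class II markers was 1387 to 2077 in knockout and 14537 to 31529 in control. Of the 6 tested, the groups lay apart for 5, the MHC class II genes H2-Aa, H2-Ab1, H2-Eb1, Cd74 and Ciita. The dendritic cell marker Itgax overlapped between the groups, and Flt3 and Xcr1 were above background on no array. For cell cycle genes the summed level was 19043 to 21478 in knockout and 8835 to 13342 in control. Mcm6 (mean log2 level 12.48 in knockout and 9.59 in control) weighs heavily in this sum. All 8 tested cell cycle genes had a log2 difference above 0, and the groups lay apart for 5. Only 1, Mcm6, was called. Hepatocyte markers summed to 261 to 757 in knockout and 180 to 413 in control, with Alb, Apoa1 and 4 others above background nowhere. Of 9 markers of B and plasma cells with a probe, the plasma cell being rich in ER, 5 were above background on no array (Cd79a, Ms4a1, Igj, Pou2af1 and Tnfrsf17). Cd79b was above background on 8 arrays and Prdm1 on 4, so these cells cannot be called absent. The part of these cell types and of the cell cycle in the values that follow was not tested, and in such bulk samples fewer cells of a type and less RNA per cell cannot be told apart.

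Of the 30 genes with a probe, 19 had one above background on at least 4 of the 8 arrays and were tested. These were 8 chaperones and isomerases, 3 degradation genes, 2 of the sensors and transcription factors, and 6 ATF4 targets. Another 9 genes were above background on no array. Among them were the lectin chaperones Calr and Canx, which hold glycoproteins, the ER chaperone Hyou1, Edem1 and Derl1 of the degradation pathway, the sensor Ern1, and Atf4 itself. The ATF4 targets Trib3, a pseudokinase, and Sesn2, a stress-induced regulator of growth signalling, were also above background nowhere. The isomerase Pdia4 was above background on 1 knockout array, and Manf, a small secreted ER stress protein, on 1 knockout and 2 control arrays. These 11 genes were not tested. A probe above background nowhere does not show that its gene is silent. For Asns and Dnajb9, 1 probe was above background on 0 arrays and another on all 8. The genes listed here therefore cannot be called unexpressed. Levels below are log2 values after background correction and quantile normalisation, with an offset of 16 that draws the folds of dim genes towards 1. Levels of different genes are not compared, because probes differ in brightness for equal RNA.

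None of the 19 members was called higher or lower in knockout with limma at an adjusted p under 0.05, where 0.530% of the 9433 probes tested were called (22 higher and 28 lower in knockout). None had an unadjusted p under 0.05 either, against 6.31% of all probes, and the smallest adjusted p was 0.835. The knockout and control values lay wholly apart for 1 member, Pdia6, against 5.02% of all probes. The log2 differences, knockout minus control, ran from -0.52 for Ppp1r15a to 0.55 for Dnajc3 and Pdia6, with 10 above 0 and 9 below. Their median was 0.05, and that of all tested probes was 0.03.

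**Figure D1:**
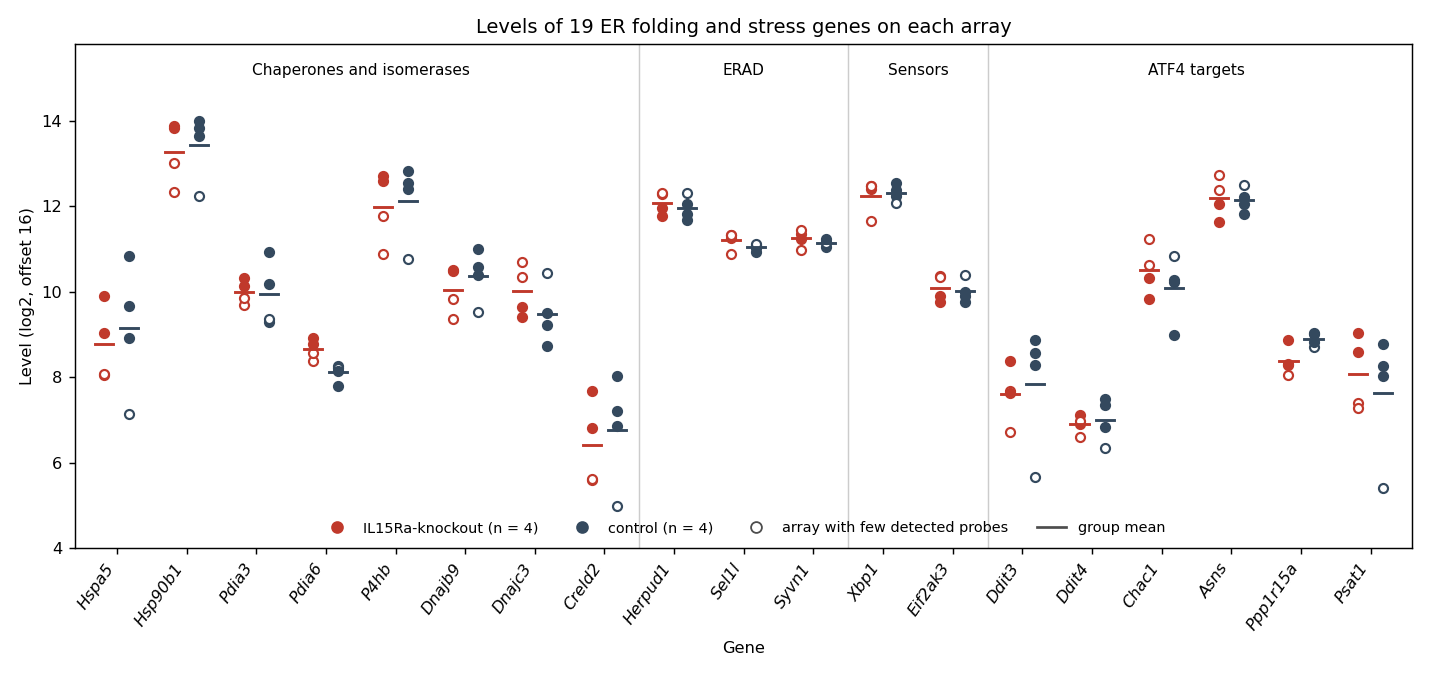
Level of each of the 19 tested genes on each array (log2 with an offset of 16), grouped by role, with knockout to the left of control for each gene, group means as bars, and open points for the 3 arrays with the fewest detected probes. Only Pdia6 has knockout points that all lie above the control points, and for Hsp90b1, P4hb and Dnajb9 the open points lie below the filled ones.

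Several chaperone promoters carry the sequence through which ER stress is known to act, and those of 5 tested chaperones are printed to show what these members share apart from their values. The ER stress response element (ERSE) is CCAAT, then 9 bases of any kind, then CCACG, and it is bound by NF-Y with ATF6 or XBP1. It was searched on both strands in RefSeq promoters of GRCm38.p6, from 250 bases before to 50 after the start site. It was found in 7 of the 14 chaperone and isomerase genes that have a promoter entry (50%), in 1 of 4 degradation genes, in 0 of 4 sensors and factors, in 0 of 8 ATF4 targets, and in 37 of all 27025 genes of the table (0.137%). A match describes these letters and is not a measured binding site. Hsp90b1 has 2 matches, and the one on the opposite strand, within chr10:86705513-86705571, is not printed. In the windows below, read 5′ to 3′ on the strand of the gene, capitals mark the element.
Hspa5, chr2:34772005-34772063, plus strand: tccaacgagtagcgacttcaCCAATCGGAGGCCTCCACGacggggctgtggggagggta
Hsp90b1, chr10:86705618-86705676, minus strand: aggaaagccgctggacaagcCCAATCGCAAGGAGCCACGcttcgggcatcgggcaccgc
Pdia6, chr12:17266471-17266529, plus strand: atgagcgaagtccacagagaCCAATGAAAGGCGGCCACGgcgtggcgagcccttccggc
Dnajc3, chr14:118937807-118937865, plus strand: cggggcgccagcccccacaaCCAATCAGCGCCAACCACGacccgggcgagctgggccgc
Creld2, chr15:88819500-88819558, plus strand, element on the opposite strand: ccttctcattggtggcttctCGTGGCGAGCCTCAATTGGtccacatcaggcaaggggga

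Among the isomerases, Pdia6, which also dampens IRE1 signalling, had levels of 8.38, 8.92, 8.78 and 8.58 in knockout and 7.80, 8.27, 8.23 and 8.16 in control. Every knockout array was above every control array, and the group means differed by 0.55 on the log2 scale or 1.46-fold (95% interval of the log2 difference -0.03 to 1.13). The difference did not pass the limma test (adjusted p = 0.835). The groups lay apart only after normalisation: the deposited signals were 268, 585, 532 and 396 in knockout and 374, 433, 333 and 606 in control, and these overlapped. Pdia3, which works on glycoproteins with the lectin chaperones, averaged 9.99 ± 0.28 in knockout and 9.94 ± 0.77 in control (SD, n = 4 each). P4hb, the classical protein disulfide isomerase and a subunit of the collagen-modifying prolyl 4-hydroxylase, averaged 11.99 ± 0.85 in knockout and 12.13 ± 0.93 in control. Both of these overlapped fully between the groups.

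The main ER chaperones varied more among the arrays of a group than between the group means. Hspa5 (BiP), the Hsp70 of the ER that holds the sensors inactive, had levels of 8.06, 9.90, 9.03 and 8.07 in knockout and 9.67, 8.91, 7.15 and 10.83 in control. The lowest and the highest of the 8 values were both in control, and the interval of the difference, -0.37, ran from -2.07 to 1.32. Hsp90b1 (GRP94), the Hsp90 of the ER, had 12.33, 13.83, 13.87 and 13.02 in knockout and 13.83, 13.65, 12.25 and 13.99 in control. Its low values were those of knockout 1 and control 3. Creld2, a stress-induced ER protein, averaged 6.42 ± 1.01 in knockout and 6.77 ± 1.28 in control, and was above background on 5 arrays only, since its 3 dim values fell on knockout 1, knockout 4 and control 3.

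Dnajb9 and Dnajc3, the 2 tested members that are co-chaperones of Hspa5, stood on opposite sides of 0. Dnajb9 (ERdj4), which also recruits BiP to IRE1, had levels of 9.37, 10.51, 10.48 and 9.84 in knockout and 10.57, 10.40, 9.52 and 11.01 in control. Its difference was -0.33 (-1.16 to 0.51). Dnajc3 (p58IPK), which stimulates BiP and inhibits PERK, had levels of 10.71, 9.40, 9.64 and 10.34 in knockout and 9.22, 9.49, 10.44 and 8.72 in control. Its difference was 0.55, or 1.47-fold (log2 interval -0.39 to 1.5, adjusted p = 0.913). The groups of both genes overlapped. Dnajc3 was highest on knockout 1, control 3 and knockout 4, the arrays on which Dnajb9 was lowest.

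The degradation genes showed small differences with the narrowest errors of the set. Herpud1, a stress-induced membrane protein that organises the degradation complex, had levels of 12.28, 11.77, 11.97 and 12.32 in knockout and 11.81, 12.06, 12.31 and 11.68 in control. Sel1l, the adaptor of the ubiquitin ligase, had 10.89, 11.27, 11.32 and 11.33 in knockout and 11.03, 11.09, 11.11 and 10.93 in control. Syvn1 (HRD1), the ligase, had 10.97, 11.35, 11.23 and 11.44 in knockout and 11.05, 11.16, 11.15 and 11.23 in control. For Sel1l, 3 of the 4 knockout values exceeded every control value, and for Syvn1 knockout 2 and knockout 4 did. On these probes knockout 1 was the lowest of all 8 arrays. A dimmer probe of Sel1l did not show this, with 10.16, 9.997, 9.91 and 10.20 in knockout and 9.55, 9.87, 10.22 and 9.78 in control. The differences were 0.12 (-0.30 to 0.54) for Herpud1, 0.16 (-0.19 to 0.51) for Sel1l and 0.10 (-0.24 to 0.44) for Syvn1, each with an adjusted p of 0.913 or 0.914. Their size depended on the scaling: under median scaling, which moved the median of all tested probes to 0.08, the differences were 0.59 for Herpud1, 0.53 for Sel1l and 0.49 for Syvn1, and none was called. The Syvn1 promoter holds an ERSE, and that of Herpud1 holds ERSE-II (ATTGG, 1 base, CCACG), found in 12 of 27025 genes (0.0444%), and also the C/EBP-ATF element TTGCATCA through which ATF4 is known to act. They are shown because Herpud1 is the 1 member with an exact match of both kinds.
Syvn1, ERSE, chr19:6046512-6046570, plus strand: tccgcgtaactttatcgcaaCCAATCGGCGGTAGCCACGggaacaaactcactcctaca
Herpud1, ERSE-II, chr8:94386357-94386407, plus strand: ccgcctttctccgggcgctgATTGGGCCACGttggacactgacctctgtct
Herpud1, C/EBP-ATF element, chr8:94386297-94386344, plus strand: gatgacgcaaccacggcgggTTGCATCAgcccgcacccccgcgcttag

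Of the sensors and transcription factors, Xbp1 and Eif2ak3 were measured. Xbp1 had levels of 11.65, 12.41, 12.47 and 12.47 in knockout and 12.25, 12.39, 12.07 and 12.54 in control, a difference of -0.06 (-0.52 to 0.40). Knockout 1 stood below all other arrays, and without it the difference was 0.14. The single probe does not read the spliced form apart from the unspliced one. Eif2ak3 (PERK) had 10.37, 9.76, 9.91 and 10.34 in knockout and 9.90, 9.99, 10.40 and 9.77 in control, a difference of 0.08 (-0.44 to 0.60). Its values in the groups overlapped almost wholly, and its sign turned in a fit without knockout 1 or knockout 4. RNA levels do not show whether either sensor pathway was active, since splicing and phosphorylation are not measured here.

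The ATF4 targets also did not separate the genotypes. Ppp1r15a (GADD34), which brings a phosphatase to eIF2 alpha and so ends the translation block, had levels of 8.27, 8.86, 8.30 and 8.04 in knockout and 9.03, 9.02, 8.71 and 8.82 in control. Of the knockout values, 3 lay below every control value, and knockout 2 lay within the control range. The difference was -0.52, so the control level was 1.44-fold that of knockout (log2 interval -1.12 to 0.07, adjusted p = 0.887). Chac1, an enzyme that degrades glutathione, had 11.24, 9.84, 10.32 and 10.63 in knockout and 10.22, 10.28, 10.83 and 8.98 in control. Its difference of 0.43 (-0.53 to 1.39) had an adjusted p of 0.913, and its values overlapped. The Chac1 promoter is printed because it is the 1 ATF4 target of 8 with the exact letters TTGCATCA, on either strand, in the window. Such a match was also found in 1.03% of all genes of the table. Variants of the element were not searched, so the other targets may carry one.
Chac1, C/EBP-ATF element, chr2:119351029-119351076, plus strand: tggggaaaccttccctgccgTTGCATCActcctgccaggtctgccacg

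The other ATF4 targets serve amino acid synthesis and the response to prolonged stress. Psat1, of serine synthesis, had levels of 7.40, 9.04, 8.58 and 7.27 in knockout and 8.27, 8.03, 5.41 and 8.78 in control, where the value of control 3 was not above background. Its difference of 0.45 (-1.23 to 2.13) was -0.28 when control 3 alone was left out. When knockout 1 and knockout 4 were left out with control 3, it was again 0.45. Asns, asparagine synthetase, averaged 12.20 ± 0.48 in knockout and 12.15 ± 0.28 in control. Ddit3 (CHOP), the stress-induced factor linked to cell death, averaged 7.60 ± 0.68 in knockout and 7.85 ± 1.47 in control, again with control 3 not above background. Ddit4 (REDD1), an inhibitor of mTOR signalling, had 6.59, 6.90, 7.12 and 6.98 in knockout and 7.34, 6.84, 6.34 and 7.49 in control, with control 3 not above background. None of these 4 had groups that lay apart.

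**Figure D2:**
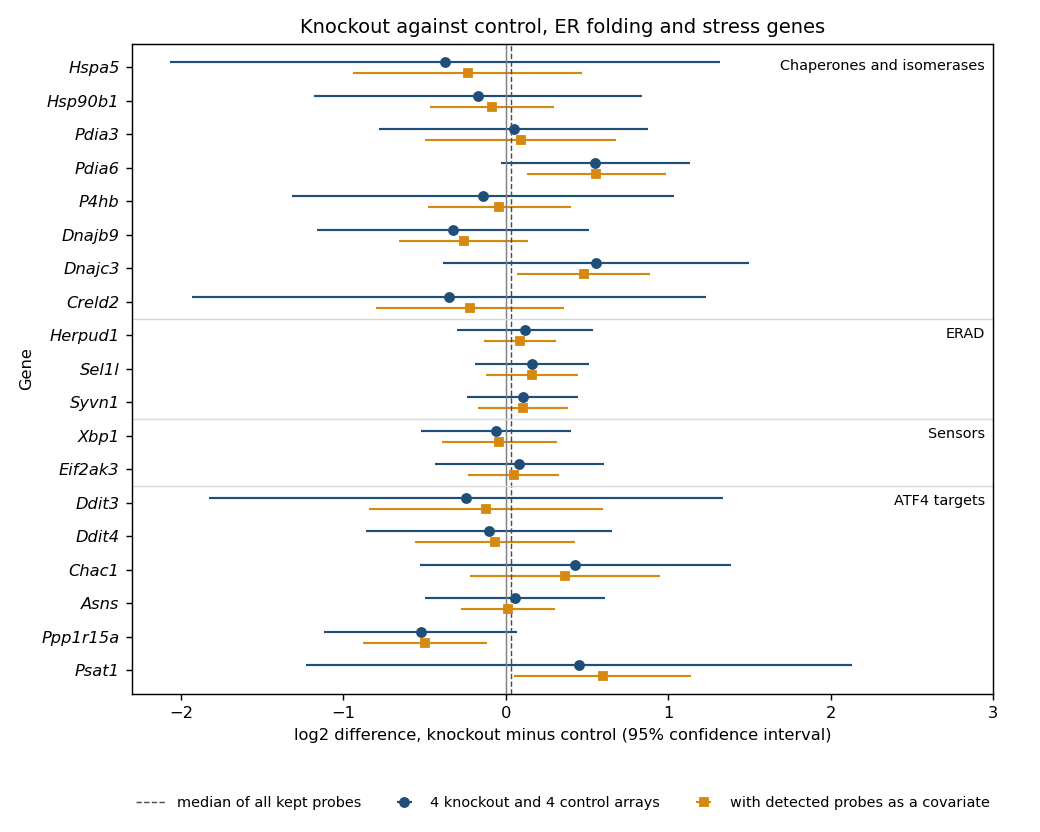
The log2 difference, knockout minus control, of each of the 19 genes with its 95% confidence interval from limma over 8 arrays (circles) and from a fit with detected probes as a covariate (squares), with the median of all tested probes as a dashed line. All 19 intervals without the covariate include 0, and those of Pdia6, Dnajc3, Ppp1r15a and Psat1 exclude it with the covariate.

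The intervals show how large a difference these arrays could have missed. They reached 0.34 to 1.69 log2 units to each side of the estimate, with a median of 0.83, the same as over all tested probes (0.825). They were narrow for Syvn1 and Sel1l and widest for Hspa5 and Psat1. Log2 differences of both 1 and -1 lay within the intervals of Hspa5, P4hb, Creld2, Ddit3 and Psat1, so the absence of a call does not show equal levels.

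Setting chaperones against ATF4 targets gave no separation of the genotypes. The median log2 difference was -0.16 over the 8 chaperones and isomerases (3 above 0 and 5 below) and -0.03 over the 6 ATF4 targets (3 above 0 and 3 below), a difference of -0.13 between the medians, chaperones minus ATF4 targets. On each array, the mean deviation of the chaperones from their 8-array means was -0.54, 0.50, 0.26 and -0.27 in knockout and 0.18, 0.05, -0.82 and 0.65 in control. For the ATF4 targets it was 0.05, 0.17, 0.06 and -0.27 in knockout and 0.26, 0.22, -0.70 and 0.19 in control. Chaperones minus ATF4 targets came to -0.02 ± 0.40 in knockout and 0.02 ± 0.30 in control (SD, n = 4 each). The difference between the medians changed sign in several fits: it was 0.41 under median scaling, where the chaperone median itself was 0.34 and the ATF4 median -0.07, and leaving out 1 array at a time moved it between -0.38 and 0.21. Leaving out control 3 moved the ATF4 median to -0.31.

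**Figure D3:**
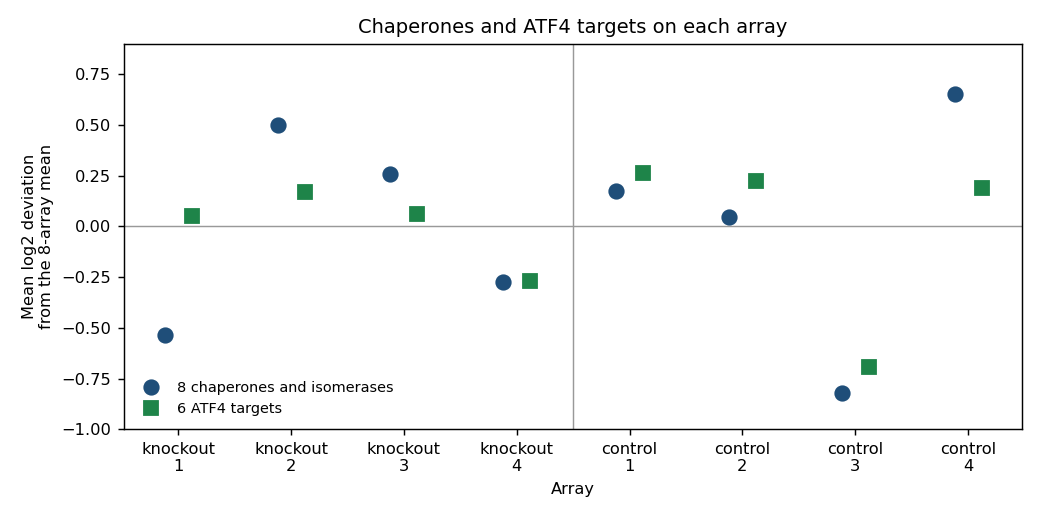
Mean log2 deviation of the 8 chaperones and isomerases (circles) and the 6 ATF4 targets (squares) from each gene's mean over 8 arrays, for the 4 knockout arrays on the left and the 4 control arrays on the right. Both means are lowest on control 3 (-0.82 and -0.70), and the 2 sets lie farthest apart on knockout 1 (-0.59) and control 4 (0.46).

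Of the 19 members, 11 had their 3 lowest or their 3 highest values on the 3 arrays with the fewest detected probes, which belong to both genotypes. Of the 8 chaperones, 5 had their 3 lowest values on exactly these arrays: Hspa5, Hsp90b1, P4hb, Dnajb9 and Creld2. Hspa5 averaged 7.76 on those 3 arrays and 9.67 on the other 5, and Hsp90b1 averaged 12.53 on the 3 and 13.84 on the 5. Psat1 did the same, with 6.69 on the 3 and 8.54 on the 5. Dnajc3, Herpud1, Eif2ak3, Chac1 and Asns had their 3 highest values there instead. Over all 19 members that makes 6 with the lowest and 5 with the highest values on the 3 arrays, where 30.2% and 36.1% of all tested probes did so, so the members' shares (31.6% and 26.3%) were near those of the array as a whole. Why these arrays differ was not tested.

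Different probes of 1 gene could run opposite ways across these arrays. The main probe of Asns, the brighter one, had 12.74, 11.62, 12.06 and 12.39 in knockout and 12.06, 12.23, 12.49 and 11.82 in control, so its 3 highest values were on knockout 1, knockout 4 and control 3. The other probe had 8.86, 9.43, 9.54 and 8.82 in knockout and 10.17, 9.68, 8.0 and 9.93 in control, with its 3 lowest values on the same arrays. Herpud1 behaved alike: its main probe was highest on the 3 arrays, and its other probe, with 9.79, 11.30, 11.33 and 10.64 in knockout and 11.41, 11.30, 10.16 and 11.31 in control, was lowest there. The probes of Sel1l differed as well, since its dimmer probe had its 3 highest values on these arrays and its main probe did not. The log2 difference of the other probe was -0.28 for both Asns and Herpud1, against 0.05 for the main probe of Asns and 0.12 for that of Herpud1. The probes' positions in the transcripts are not used here.

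**Figure D4:**
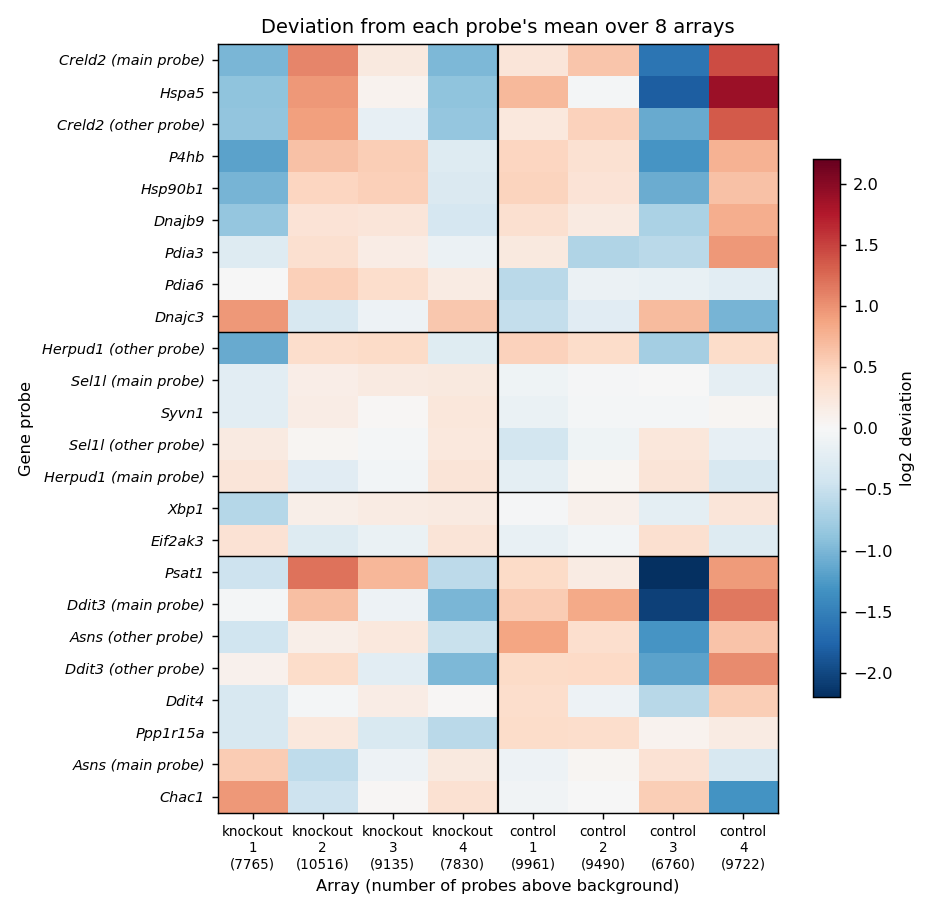
Log2 deviation of each tested probe of the 19 genes from its own mean over 8 arrays, with knockout arrays left of the line and control arrays right of it, the number of probes above background under each array, and rows grouped by role from chaperones at the top to ATF4 targets at the bottom. Creld2, Hspa5, P4hb, Hsp90b1 and Dnajb9 lie below their means on knockout 1, knockout 4 and control 3, and the main and other probes of Asns and Herpud1 show opposite colours there.

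When the limma fit also held each array's number of detected probes as a covariate, the members' intervals narrowed to a median of 0.41 to each side. Still 0 of 19 members were called, against 7.10% of all probes. An unadjusted p under 0.05 was reached by 4 of 19, against 24.0% of all probes. The genes were Pdia6 (0.56, interval 0.13 to 0.98, adjusted p = 0.114), Dnajc3 (0.48, adjusted p = 0.148), Psat1 (0.60, adjusted p = 0.174) and Ppp1r15a (-0.50, interval -0.88 to -0.12, adjusted p = 0.114). The first 3 were higher in knockout and Ppp1r15a lower, and none passed after adjustment. In that fit no member's interval reached below -0.94 or above 1.14. Without the 3 arrays, again 0 of 19 members were called, against 1.79% of all probes, and Pdia6 stood at 0.78 (adjusted p = 0.236). With array weights, 5 of 19 members were called (Pdia6, Dnajc3, Sel1l, Ddit3 and Ppp1r15a), but so were 38.5% of all probes. That fit rested largely on knockout 3, whose weight was 36.8, against 5.55 for the next array.

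The wider machinery around these genes showed the same picture. In 6 further lists of ER and stress genes, 98 genes in all, 88 had a probe and 69 were tested, and 0 were called in either direction, against 0.530% of all probes. Their median log2 difference was 0.03, with 38 above 0 and 31 below. An unadjusted p under 0.05 was reached by 1, Nars, the asparaginyl-tRNA synthetase, against 6.31% of all probes. The groups lay apart for 3, Nars, Vcp and Ube2j1, against 5.02% of all probes, so neither count exceeded the share over the whole array. Vcp, the ATPase that pulls proteins out of the ER membrane, averaged 12.49 ± 0.04 in knockout and 12.28 ± 0.08 in control, a difference of 0.21 (adjusted p = 0.843). Ube2j1, a ubiquitin-conjugating enzyme of the ER, averaged 10.07 ± 0.21 in knockout and 10.33 ± 0.11 in control. Nars averaged 10.24 ± 0.06 in knockout and 10.69 ± 0.25 in control, a difference of -0.44 (adjusted p = 0.655).

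By list, 14 other folding enzymes were tested, with a median difference of -0.0052. Among them Serpinh1 (HSP47), the collagen-specific chaperone, averaged 9.16 ± 0.69 in knockout and 9.99 ± 1.06 in control, a difference of -0.83 (adjusted p = 0.913, and 0.0616 with the covariate). Dnajc10, a reductase of the degradation route, stood at 0.42, and Mogs, which trims glucose from new glycoproteins, at 0.36. The 8 other degradation genes had a median of -0.10, where Edem2, which trims mannose from misfolded glycoproteins, stood at 0.22 beside Vcp and Ube2j1. The 11 genes of ER import had a median of 0.09, with 6 above 0 and 5 below. The signal peptidase subunits Spcs2 and Sec11c stood at 0.30 and 0.25, and Sec63, a co-factor of the translocation channel, at 0.27, each with an adjusted p of 0.913. Ssr2 at -0.98, Sec61a1 at -0.68 and Serp1 at -0.64 were larger and below 0, with overlapping groups and the same adjusted p. The 10 other sensors and factors had a median of -0.07. Cebpb, a transcription factor of stress and inflammation, averaged 12.36 ± 0.87 in knockout and 13.03 ± 0.70 in control, and Atf3, a stress-induced factor, 8.26 ± 1.30 in knockout and 8.93 ± 1.26 in control. Nfe2l2 (NRF2), the factor of the antioxidant response, stood at 0.38, and the groups of all 3 overlapped. The 18 other ATF4 targets had a median of 0.14, with 10 above 0 and 8 below. Vldlr, a lipoprotein receptor, stood at 0.62 (adjusted p = 0.913). The 10 genes of cytosolic heat shock, whose factor HSF1 answers to misfolding outside the ER, had a median of 0.0083. Bag3, an Hsp70 co-chaperone, stood at -0.46, the small heat shock protein Hspb1 at 0.28 and the Hsp40 Dnajb1 at 0.13, all with overlapping groups.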

How the data were processed

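Per the file headers, the deposited table holds unnormalised bead signal (linear intensity with its background still in it) and a detection p-value that sets each probe against the negative controls of its array. The authors used GenomeStudio, version 3 per the submitters' processing notes. Intensity values that the authors quantile normalised were also deposited and served as an alternative. Groups came from the labels. Members and lists were chosen with earlier results of these data known.

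The function neqc of limma 3.58.1 (R 4.3.3) corrected the background, quantile normalised the signals and returned log2 values with an offset of 16. Of 25697 probes, the 9433 above background (detection p under 0.05) on 4 or more of 8 arrays were kept. Groups were compared with lmFit and trended eBayes, and p-values were adjusted over all kept probes (Benjamini-Hochberg, threshold 0.05). Each gene stands for its kept probe with the highest mean. Named with full values were Pdia6, Dnajc3, Dnajb9, Sel1l, Syvn1, Herpud1, Eif2ak3, Xbp1, Ppp1r15a, Chac1 and Psat1, up to 3 tested members of each role with the smallest p, with Il15ra and up to 3 genes of each further list by the same rule; other genes were named after their values were seen. Fits that leave out arrays kept the normalisation and probes of all 8. The number of arrays limits the precision. No 2 arrays shared over 0.448% of identical values. Promoters are RefSeq's, with 30 of 34 members matched by current symbol or synonym. They are not the same 30 genes as those with a probe. Dnajb11, Sdf2l1 and Ero1l had a promoter entry but no probe, and Manf, Hyou1 and Derl1 had a probe but no promoter entry.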

Additional observations from a re-analysis of the deposited data

Results flagged for a closer look

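Among the 38 groups of 4 values that the 19 tested members give, 2 held a value far from the others by Dixon's test, about the number that chance gives at 1 in 20. Both were low values of knockout 1. Sel1l stood at 10.89 there, with the next knockout value at 11.27 and the highest at 11.33. A dimmer probe of Sel1l did not show it, with knockout 1 at 10.16 among knockout values of 9.91 to 10.20. Xbp1 stood at 11.65, with the next at 12.41 and the highest at 12.47. Knockout 1 is 1 of the 3 arrays with the fewest detected probes, and the part of that in these values was not tested.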

How the results depend on the processing

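Against 50 probes called (22 higher and 28 lower in knockout), 91 were called under median scaling (60 and 31), 95 under cyclic loess (52 and 43), 17 where every array had to reach a detection p under 0.01, 3632 with array weights (an estimate that stopped before it converged), 670 with detected probes as a covariate (402 and 268), 169 when knockout 1, knockout 4 and control 3 were left out, and 22 at an adjusted p under 0.01. Leaving out 1 array gave 22 to 123, the highest without control 3. Array weights called 5 members, and the other alternatives and single leave-outs called 0. The chaperone median lay between -0.58 and 0.14 and the ATF4 target median between -0.31 and 0.060 over single leave-outs, their difference between -0.38 and 0.21, and it was 0.41 under median scaling, where the chaperone median was 0.34. Of the 11 members named by rule, 7 kept their sign in every fit: Pdia6, Dnajb9, Dnajc3, Sel1l, Syvn1, Chac1 and Ppp1r15a. Xbp1 turned to 0.45 under median scaling, 0.16 with array weights, 0.045 without those 3 arrays, and 0.14 and 0.015 without knockout 1 and control 4 (-0.14 to 0.14 over single leave-outs). Eif2ak3 turned to -0.0068 with array weights, -0.047 without the 3 arrays, and -0.0078 and -0.00028 without knockout 1 and knockout 4 (highest 0.21). Herpud1 turned to -0.082 as the mean of its probes, and Psat1 to -0.28 without control 3 (highest 0.84). The cause was not tested. The replicate block called 3 probes and 0 members. Arrays with the same number correlated at -0.66, 0.60, -0.75 and -0.82 in their deviations. The labels state no pairing, and these correlations cannot decide it, because many probes had their extreme values on knockout 1, knockout 4 and control 3.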
